A study of Mus musculus with 6 samples.

Results

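The genes described here encode the proteins of the cytosolic and of the mitochondrial ribosome, followed here by RNA sequencing of primary mouse fibroblasts. They were chosen by name alone: protein-coding rows whose symbol is Rpl, Rps, Mrpl or Mrps followed by a number, with Rplp0, Rplp1, Rplp2 and Rpsa. Rows named as pseudogenes and the Rps6k kinases were left out. The rule gave 164 of the 51912 genes of the table, of which 86 belong to the cytosolic ribosome (52 large subunit, 34 small subunit) and 78 to the mitochondrial one (49 large subunit, 29 small subunit). Rps19bp1, a regulator of the deacetylase SIRT1 in human cells, and Rpl7l1, a paralog of Rpl7, fit the rule by name and are counted with the cytosolic genes.

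One group of 3 libraries came from fibroblasts kept with the chemokine CXCL3 for 48 h, and the other group of 3 from control fibroblasts, all from mice aged 6 weeks. The sources used here name no strain, organ of origin, sex or dose, and do not say whether the replicates were separate cultures or animals. The p-values therefore measure the spread between these libraries, which may be technical. Values are in TPM, a share of all transcripts that corrects for transcript length and library size. TPM keeps no read depth, so no counting interval can be given.

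A ribosome is built of ribosomal RNA and many proteins, most of them in a single copy. The cytosolic ribosome translates nearly all cellular mRNAs. Its protein mRNAs are among the most abundant of a growing cell, and most begin with a run of pyrimidines, the 5′ terminal oligopyrimidine (TOP) motif, through which the kinase mTORC1 controls their translation. The mitochondrial ribosome translates only the few mRNAs encoded in mitochondrial DNA, all for subunits of oxidative phosphorylation, and its proteins are encoded in the nucleus and imported.

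The 5′ ends are shown first, as the stretch that carries the TOP motif. RefSeq promoter windows (GRCm38.p6, 250 bases before to 50 after the annotated start) were found for 135 of the 164 genes. A run of at least 8 pyrimidines near the start, between 20 bases before and 30 bases after it, was present in 34 of 66 cytosolic genes (51.5%), 16 of 69 mitochondrial genes (23.2%) and 21.3% of the 17491 protein-coding genes of the promoter table. The run was found over the annotated start itself in 17 cytosolic genes and in 1 of 69 mitochondrial genes, Mrpl45. Rpl17 and Rps14 were left out of this count, so the cytosolic number is a minimum. No share over all protein-coding genes was taken for comparison. Windows of 30 bases around the start follow for 6 cytosolic genes, with the run in capitals, as far as it falls inside the window.
Rps24, chr14:24490663-24490692, plus strand: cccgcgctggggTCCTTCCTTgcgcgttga
Rps27, chr3:90213634-90213663, minus strand: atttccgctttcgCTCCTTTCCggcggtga
Rps18, chr17:33955651-33955680, minus strand: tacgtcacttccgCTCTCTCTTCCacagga
Rpl34, chr3:130730323-130730352, minus strand: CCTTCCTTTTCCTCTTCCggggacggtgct
Rpl7a, chr2:26910792-26910821, plus strand: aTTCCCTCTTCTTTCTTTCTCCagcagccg
Rpl14, chr9:120571502-120571531, plus strand: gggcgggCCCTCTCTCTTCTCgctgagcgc

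The letters CCGGAAG, the core bound by ETS-family factors such as GABP, were found on either strand in 26 of 66 cytosolic promoters (39.4%) and 26 of 69 mitochondrial promoters (37.7%), against 12.9% of all protein-coding promoters. The palindromic motif of the factor NRF1 was in 9.09% of cytosolic and 18.8% of mitochondrial promoters, against 7.17% of all. AAGATGG, a motif of the factor YY1, was in 15.2% of cytosolic and 18.8% of mitochondrial promoters, against 7.18% of all. The searches covered both strands, windows of 1 length, and can overlap each other. The windows below show them in mitochondrial genes whose values are given further on, with the match in capitals, CCGGAAG or its reverse complement CTTCCGG in the first 4 and the NRF1 motif in Mrpl9 and Mrpl39.
Mrpl33, chr5:31613937-31613966, plus strand: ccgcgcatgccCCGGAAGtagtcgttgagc
Mrpl57, chr14:57826232-57826261, plus strand: ccccagagagaCCGGAAGcagcgcgccgcc
Mrpl43, chr19:45006436-45006465, minus strand: caaccccggaaCCGGAAGtcaccggttagt
Mrps21, chr3:95871478-95871507, minus strand: cgtagcttccgCTTCCGGtccgcagagacc
Mrpl9, chr3:94443298-94443327, plus strand: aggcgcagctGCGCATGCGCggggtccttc
Mrpl39, chr16:84735350-84735379, minus strand: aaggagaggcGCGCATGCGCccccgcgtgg
A match of letters is a description of the window and not evidence that a factor binds there.

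The libraries differed in ways that touch every result here. In log2(TPM + 1), the median gene had an SD of 0.09 among the CXCL3 libraries and 0.20 among the controls. Control 1 stood apart from controls 2 and 3: each library's deviation from the gene means correlated with transcript length at Spearman rho of 0.40, 0.37 and 0.20 in the CXCL3 libraries, and at 0.45 in control 1, against -0.50 and -0.48 in controls 2 and 3 (across genes, a description). Ribosomal protein mRNAs are short, with a median longest transcript of 1094 bases for the cytosolic and 1866.5 bases for the mitochondrial genes, against 3213 bases for all genes tested. Results are therefore also given without control 1 and without controls 2 and 3. Transcripts of macrophage markers were abundant in cells labelled as fibroblasts: all 12 macrophage markers passed the filter on low values, and their summed level was 15491 to 15613 TPM in CXCL3 libraries and 15823 to 18909 TPM in controls. Lyz2, the lysozyme of macrophages, made up most of that sum, at 13115, 13201 and 13244 TPM in CXCL3 libraries, against 14449, 13260 and 16166 TPM in controls. The 12 markers did not go one way: 5 log2 fold changes were positive and 7 negative, with Mrc1 entirely higher and Lyz2, C1qb, C1qc and Ctss entirely lower in CXCL3 libraries, and none passed the test. Of the 12 fibroblast markers, 10 passed the filter on low values. The list summed to 6389 to 6738 TPM in CXCL3 libraries and 5699 to 7727 TPM in controls. Of the log2 fold changes of these 10 markers, 5 were positive and 5 negative. S100a4 and Vim were entirely higher and Col3a1 and Dcn entirely lower in CXCL3 libraries. Only Col3a1 passed the test (log2 fold change -1.05, limma adjusted p = 0.0293). Epithelial markers summed to at most 1.96 TPM and pancreatic acinar markers to at most 0.34 TPM in any library, and the T-cell marker Cd3e was listed at 0 in all 6. Not every other list was near 0. Neutrophil markers summed to 529.86 to 583.09 TPM in CXCL3 libraries and 553.64 to 668.85 TPM in controls, nearly all of it S100a8. Mesothelial markers summed to 29.87 to 31.88 TPM in CXCL3 libraries and 22.35 to 33.66 TPM in controls, nearly all of it Wt1. In such bulk RNA, a change in the mix of cells and a change of RNA per cell cannot be told apart, and the part of the macrophage transcripts in the results below was not tested.

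The cytosolic ribosomal protein genes were a large share of all transcripts. Their summed level was 101030, 102582 and 103903 TPM in CXCL3 libraries, against 93768, 119983 and 103567 TPM in controls 1, 2 and 3. This was 10.3% to 10.6% of the column in CXCL3 libraries and 9.52% to 12.2% in controls. The CXCL3 libraries lay close together and inside the range of the controls, with a mean of 102505 ± 1438 TPM in CXCL3 libraries and 105773 ± 13246 TPM in controls (SD, n = 3 each). The mitochondrial ribosomal protein genes summed to 3832, 3885 and 3929 TPM in CXCL3 libraries, against 3939, 4766 and 4324 TPM in controls. All 3 CXCL3 sums lay below the lowest control, but control 1 was close to the highest of them, and the separation is narrow. The mitochondrial mean was 3882 ± 48.8 TPM in CXCL3 libraries and 4343 ± 414 TPM in controls.

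The balance between the 2 ribosomes also separated the groups, by a wider margin. The cytosolic sum was 26.37, 26.41 and 26.44 times the mitochondrial sum in CXCL3 libraries, against 23.81, 25.18 and 23.95 times in controls. All 3 CXCL3 ratios were above all 3 control ratios, and the means were 26.4 ± 0.0388 in CXCL3 libraries and 24.3 ± 0.753 in controls, a ratio of CXCL3 over control of 1.09. The ratio of means was 1.11 against control 1 alone and 1.07 against controls 2 and 3. With the trend in transcript length and GC content removed, the ratio of CXCL3 over control was 1.11. The part of the length trend in it was not tested. No p is given for a score over these genes, and with 3 libraries in each group an exact permutation test cannot go below 0.1. Within each ribosome the proportion of the 2 subunits overlapped between the groups. The large over the small subunit was 1.34, 1.33 and 1.34 in CXCL3 libraries and 1.35, 1.38 and 1.31 in controls for the cytosolic ribosome. For the mitochondrial ribosome it was 1.83, 1.85 and 1.88 in CXCL3 libraries and 1.88, 1.77 and 1.93 in controls.

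**Figure D1:**
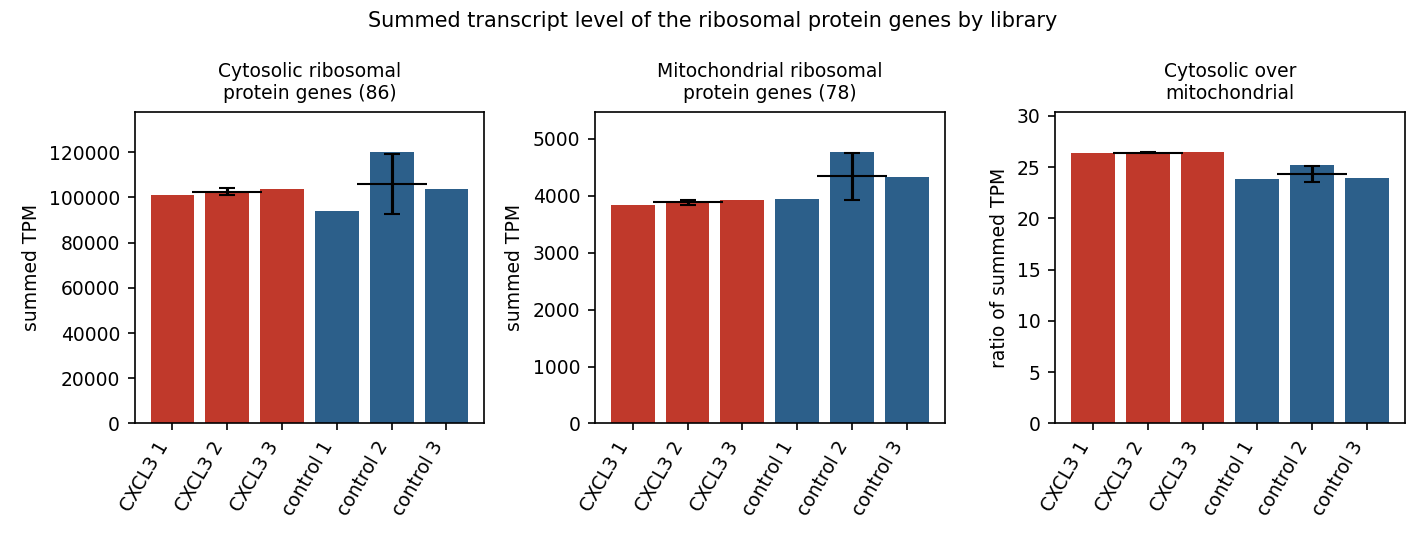
Summed TPM of the cytosolic and of the mitochondrial ribosomal protein genes, and their ratio, in each library (bars; red, CXCL3; blue, control), with the mean and SD of each group in black. The CXCL3 sums of the cytosolic genes lie inside the control range of 93768 to 119983 TPM, while all 3 CXCL3 ratios, 26.37 to 26.44, are above the control ratios, 23.81 to 25.18.

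Genes were tested if 3 or more libraries had at least 1 TPM, which held for 161 of the 164: 83 cytosolic and all 78 mitochondrial. Kept genes of the cytosolic ribosome had a median level of 1139 TPM and ranged from 6.32 to 4896 TPM. Kept genes of the mitochondrial ribosome had a median of 44.9 TPM and ranged from 7.28 to 325 TPM. The most abundant cytosolic mRNA was Rplp1, an acidic protein of the stalk that recruits elongation factors, at 4833, 4888 and 5088 TPM in CXCL3 libraries, against 4213, 5622 and 4731 TPM in controls. Next came Rpl13a, a large-subunit protein also known for translational control in inflammation, at 3683, 3739 and 3925 TPM in CXCL3 libraries, against 3777, 5614 and 3109 TPM in controls. The third was Rps24, a small-subunit protein mutated in some patients with Diamond-Blackfan anaemia, at 2863, 2881 and 3060 TPM in CXCL3 libraries, against 2661, 3684 and 3194 TPM in controls. For all 3 the CXCL3 values fell inside the control range, and none passed the test (limma adjusted p = 0.881, 0.813 and 0.662).

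Among mitochondrial genes the highest levels were those of Mrpl52, Mrps21 and Mrpl54, with means of 303 ± 20.5, 152 ± 3.603 and 122 ± 5.82 TPM in CXCL3 libraries, against 348 ± 32.1, 198 ± 69.0 and 140 ± 19.7 TPM in controls (SD, n = 3 each). The groups did not overlap for Mrpl52, whose highest CXCL3 value, 320.61 TPM, was next to the lowest control value, 320.62 TPM. For Mrps21, control 2 alone was at 273 TPM and control 1 was below all CXCL3 libraries. Without control 1, Mrps21 (-0.56, adjusted p = 0.0337) and Mrpl54 (-0.29, adjusted p = 0.029) passed as lower, as did 7.17% of all genes. At the low end, Mrpl19 averaged 7.45 ± 0.44 TPM in CXCL3 libraries and 7.11 ± 0.341 TPM in controls, and Mrpl1 averaged 7.58 ± 0.778 TPM in CXCL3 libraries and 8.50 ± 0.095 TPM in controls.

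No member of either ribosome passed the test between CXCL3 and control. With limma on log2(TPM + 1) and Benjamini-Hochberg adjustment over the 13139 genes tested, 0 of 83 cytosolic and 0 of 78 mitochondrial genes had an adjusted p under 0.05, against 21 of all genes, a share of 0.16% (0.0304% higher and 0.129% lower). At an unadjusted p under 0.05 there were 3 cytosolic genes (1 higher, 2 lower) and 7 mitochondrial genes (all lower), against 11.6% of all genes. The direction of the fold changes differed between the lists and the rest of the genes. They were negative for 55 of 83 cytosolic genes (66.3%) and 69 of 78 mitochondrial genes (88.5%), against 37.7% of all genes tested. The median log2 fold change was -0.05 for cytosolic and -0.13 for mitochondrial genes, against 0.07 for all genes. These shares and medians describe genes that vary together within 6 libraries and carry no test. Both lists hold shorter transcripts than the median gene tested (1094 and 1866.5 against 3213 bases). Over all genes the fold change correlated with transcript length at a Spearman rho of 0.45. The part of that trend in these shares and medians was not tested.

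**Figure D2:**
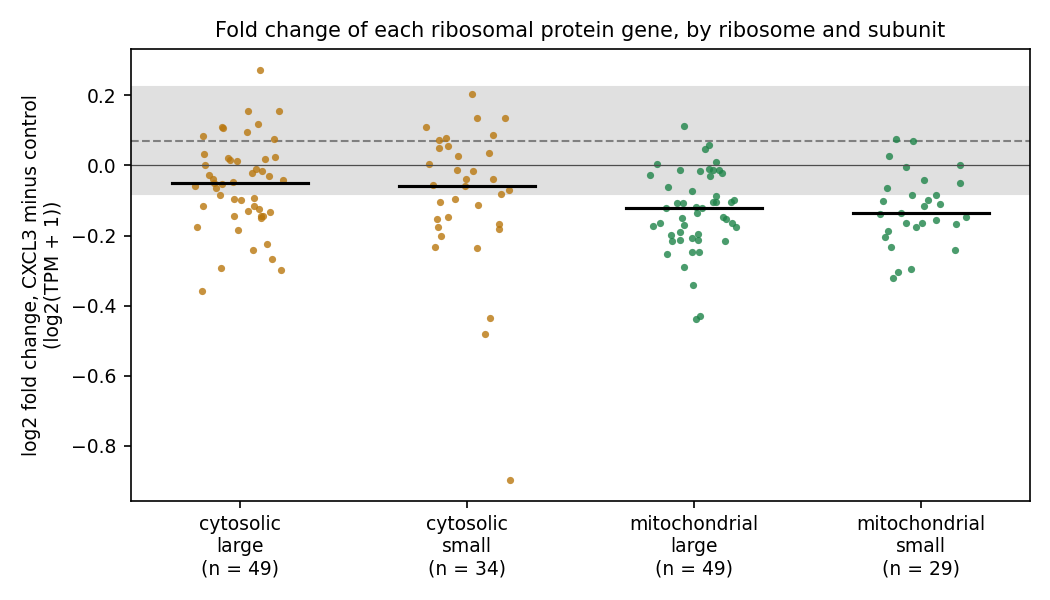
Log2 fold change (CXCL3 minus control, log2(TPM + 1)) of each gene kept, by ribosome and subunit; black lines are medians, the dashed line and grey band are the median (0.07) and the middle 50% of all 13139 genes tested. The mitochondrial genes lie mostly below 0 in both subunits, and the lowest point among the cytosolic genes, Rps27rt, is a gene with a mean of 6.32 TPM.

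Libraries whose groups do not overlap give a view that rests on no model. Among cytosolic genes 5 of 83 had all CXCL3 values above all controls and 1 had all below. Among mitochondrial genes 0 of 78 were entirely above and 17 (21.8%) entirely below. Over all genes tested the shares were 7.92% above and 9.31% below. The mitochondrial genes that did not overlap were 14 of 49 in the large subunit (28.6%) and 3 of 29 in the small subunit (10.3%), a difference between subunits that was not tested.

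The pattern by library differed between the ribosomes. Control 2 was the highest library for 65 of 83 cytosolic and 49 of 78 mitochondrial genes. Control 1 was the lowest library for 58 of 83 cytosolic genes, but for only 17 of 78 mitochondrial genes. The CXCL3 mean was above control 1 for 73 of 83 cytosolic and 33 of 78 mitochondrial genes, while it was below the mean of controls 2 and 3 for 69 of 83 cytosolic and 69 of 78 mitochondrial genes. For 47 of 83 cytosolic genes all 3 CXCL3 libraries lay above control 1 and below control 2, which held for 14 of 78 mitochondrial genes. Control 1 was above all CXCL3 libraries for 3 of 83 cytosolic and 27 of 78 mitochondrial genes. Among the CXCL3 libraries the median gene had an SD of 0.03 (cytosolic) and 0.07 (mitochondrial) in log2, and among controls of 0.18 (cytosolic) and 0.14 (mitochondrial).

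**Figure D3:**
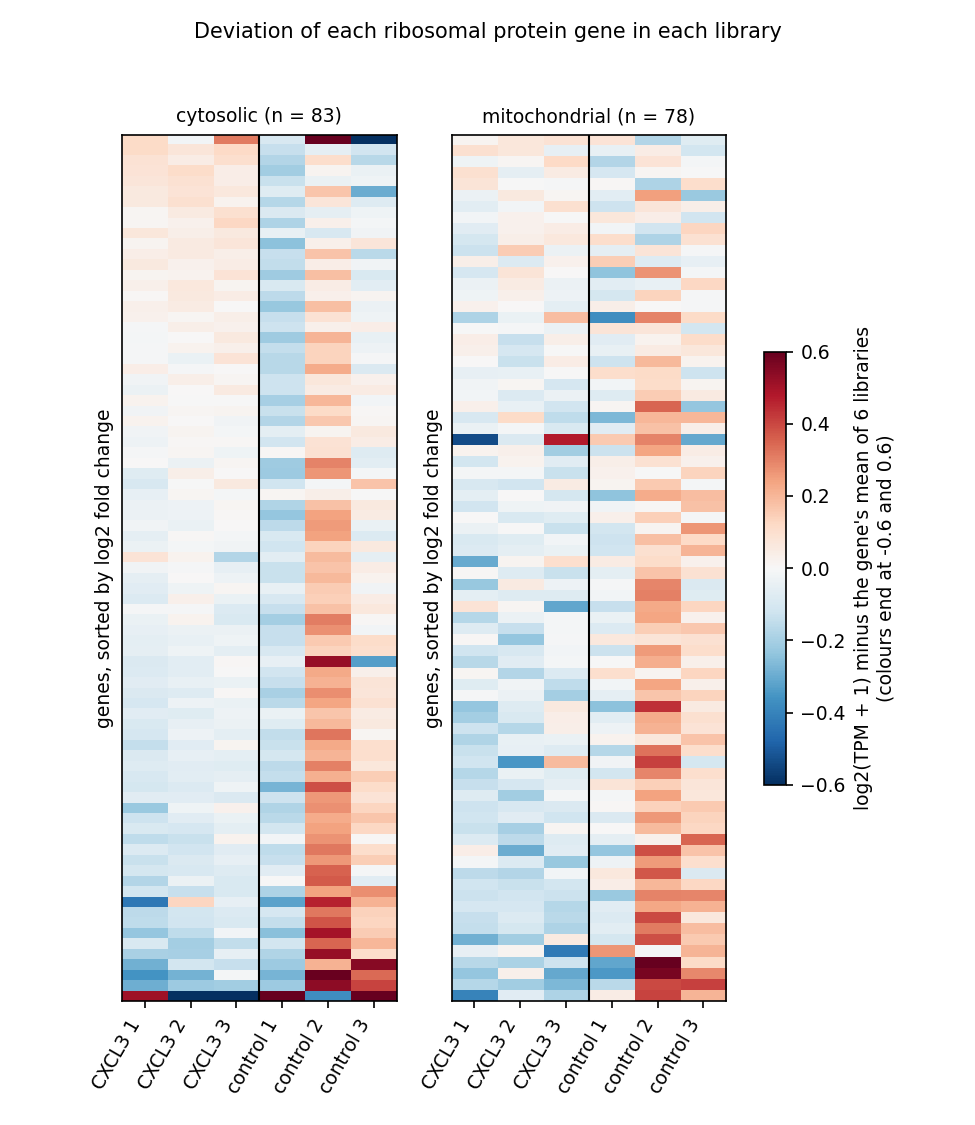
Deviation of log2(TPM + 1) from the mean of the 6 libraries for each gene (rows, sorted by log2 fold change from high at the top to low) in each library (columns; CXCL3 left of the black line, control right). Control 1 is blue and control 2 red for most cytosolic genes, and the CXCL3 columns are pale blue for most mitochondrial genes.

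The count of calls depended on control 1. Without control 1, 24 cytosolic genes (28.9%) passed as lower and 1 (1.20%) as higher, and 22 mitochondrial genes (28.2%) passed as lower and 0 as higher, by limma over all genes. Over all 13139 genes, 32.4% then passed, 7.17% as lower and 25.2% as higher. The median log2 fold change without control 1 was -0.14 for cytosolic and -0.20 for mitochondrial genes, against 0.14 for all genes. Weights fitted to each library gave control 1 the lowest weight. With them 8 cytosolic genes (9.64%) passed as lower and 1 (1.20%) as higher, and 4 mitochondrial genes (5.13%) as lower. Over all genes 3.04% then passed as lower and 7.96% as higher (11% in all). Without controls 2 and 3, control 1 stood alone, with an assumed spread like that of the CXCL3 libraries. Rps14, named after its values were seen, then had a log2 fold change of 0.25. The median log2 fold change was then 0.11 for cytosolic and -0.03 for mitochondrial genes, against -0.08 for all genes (of which 0.639% passed), so the cytosolic direction turned and the mitochondrial median stayed negative. Relative to all genes the mitochondrial median turned too. It was below the median of all genes with all libraries and without control 1, but above it without controls 2 and 3. In that last setting 45 of 78 mitochondrial genes had negative fold changes, a smaller share than the 9050 of all 13139 genes. The mitochondrial median was below the cytosolic one with all libraries, without control 1 and without controls 2 and 3. Without control 2 the cytosolic median was 0.02 and the mitochondrial median was -0.07. Across genes, the log2 fold change correlated with transcript length at a Spearman rho of -0.01 within the cytosolic and 0.08 within the mitochondrial genes, against 0.45 over all genes, as descriptions.

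For some cytosolic genes, rows of pseudogenes with near-identical sequence held much of the TPM. Rows annotated as pseudogenes, or annotated as protein-coding but named as pseudogenes, were matched to members by sequence (at least 90% identity over at least 50% of the pseudogene transcript). This gave 1053 rows for 82 cytosolic genes, of which 80 rows averaged at least 1 TPM, and 46 rows for 24 mitochondrial genes. The cytosolic pseudogene rows summed to 21547, 21162 and 21144 TPM in CXCL3 libraries, against 19469, 24805 and 22412 TPM in controls, between 16.9% and 17.8% of gene and pseudogene rows together. For mitochondrial genes the share was 2.27% to 2.78%. The pseudogene rows held at least 50% of the signal for 12 cytosolic genes and at least 90% for 4, Rps12, Rpl5, Rpl27 and Rpl12, and for 1 mitochondrial gene, Mrpl23, at 90.7%.

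Rpl5, which with Rpl11 and 5S ribosomal RNA binds the p53 regulator MDM2, shows what this does to a level. Its own row had 50.78, 48.66 and 42.26 TPM in CXCL3 libraries, against 45.84, 54.89 and 46.21 TPM in controls, among the lowest of all cytosolic genes. The rows matched to it, nearly all Gm15500, had 1287, 1296 and 1369 TPM in CXCL3 libraries, against 1228, 1407 and 1323 TPM in controls, or 96.5% of both together. The coding sequence of Rpl5 (894 bases, chromosome 5) was identical to Gm15500 (chromosome 7) at every base. Rps12, chosen after its values were seen, was listed at 63.22, 93.34 and 82.57 TPM in CXCL3 libraries, against 68.07, 117.98 and 98.85 TPM in controls, while Rps12-ps3 had 3610, 3670 and 3507 TPM in CXCL3 libraries, against 2903, 3968 and 3387 TPM in controls. How reads were divided between such rows cannot be checked from TPM, so the levels of Rpl5 and Rps12 by their own rows are uncertain.

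**Figure D4:**
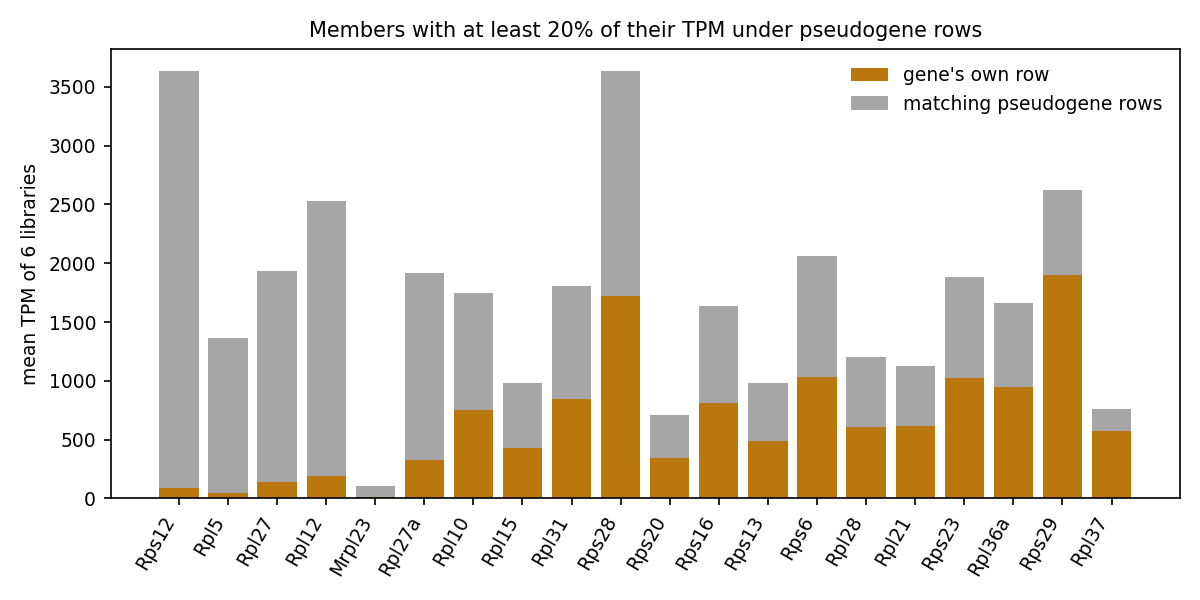
Mean TPM over the 6 libraries of the gene's own row (orange) and of the pseudogene rows matched to it (grey), for the 20 genes in which pseudogene rows hold at least 20% of the sum. Rps12, Rpl5, Rpl27, Rpl12 and Mrpl23 have most of their signal in grey.

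Rps16, whose tail reaches the decoding site of the small subunit, had the smallest p of the cytosolic genes (chr7:28350652-28353155, plus strand). Its row had 878, 853 and 882 TPM in CXCL3 libraries, against 738, 782 and 751 TPM in controls. All CXCL3 values were above all controls, with a log2 fold change of 0.20 ± 0.06 (SE) and an adjusted p of 0.286 by limma. It passed as higher without control 1, at 0.19 with an adjusted p of 0.0242, as did 25.2% of all genes. The pseudogene Rps16-ps2 had 769, 783 and 813 TPM in CXCL3 libraries, against 607, 1006 and 959 TPM in controls. With pseudogene rows added to the gene, the values were 1648, 1636 and 1696 TPM in CXCL3 libraries, against 1345, 1788 and 1711 TPM in controls. The groups then overlapped, and the log2 fold change was 0.05 (adjusted p = 0.821). All 441 coding bases of Rps16 were identical to Rps16-ps2 on chromosome 5. The first 60 of them, the same letters in both, are shown with the start codon in capitals.
Rps16 and Rps16-ps2: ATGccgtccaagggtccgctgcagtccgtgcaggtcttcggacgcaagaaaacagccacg

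Rps13, a small-subunit protein at the interface of the subunits, had the smallest p among the negative fold changes (chr7:116331505-116334195, minus strand). Its row had 389, 410 and 414 TPM in CXCL3 libraries, against 410, 693 and 633 TPM in controls. Control 1 lay among the CXCL3 libraries and controls 2 and 3 well above them. The log2 fold change was -0.48 ± 0.18 (SE; adjusted p = 0.389), and without control 1 it was -0.71 (adjusted p = 0.00408). Over all genes 7.17% passed as lower without control 1. The row Rps13-ps1 had 501, 469 and 488 TPM in CXCL3 libraries, against 472, 463 and 368 TPM in controls. In control 3 the gene's row was high and the Rps13-ps1 row was at its lowest. Another matched row, Rps13-ps2, had 13.08, 6.02 and 0.0 TPM in CXCL3 libraries, against 4.71, 136.56 and 42.17 TPM in controls. With pseudogene rows added, Rps13 had 904, 885 and 901 TPM in CXCL3 libraries, against 888, 1293 and 1043 TPM in controls, and a log2 fold change of -0.24 (adjusted p = 0.462). Its 456 coding bases differed from Rps13-ps1 at 2 positions, T411C and A429G, counted from the first base of the start codon with the gene's base first. Both are capitals in the stretch from position 400 to 439.
Rps13, chromosome 7: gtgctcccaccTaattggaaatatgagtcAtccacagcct
Rps13-ps1, chromosome 8: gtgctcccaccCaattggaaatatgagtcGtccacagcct

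Rps20, which sits in the head of the small subunit, had 260, 274 and 331 TPM in CXCL3 libraries, against 275, 503 and 421 TPM in controls. The log2 fold change was -0.44 ± 0.21 (SE; adjusted p = 0.456), again with control 1 inside the CXCL3 range. Without control 1 Rps20 passed as lower, at -0.68 with an adjusted p of 0.00973, as did 7.17% of all genes. Its pseudogene row Gm4332 had 382, 382 and 355 TPM in CXCL3 libraries, against 287, 400 and 384 TPM in controls. With pseudogene rows added, the log2 fold change was -0.17 (adjusted p = 0.613). Over the 346 coding bases compared the 2 sequences differed once, G324A, in capitals in the stretch from position 304 to 343.
Rps20, chromosome 4: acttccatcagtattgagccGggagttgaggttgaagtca
Gm4332, chromosome 3: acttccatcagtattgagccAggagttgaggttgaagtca

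Of the other cytosolic genes with the smallest p, 3 more had large pseudogene rows. Rpl10, which joins the large subunit late and lies near its catalytic centre, had 604, 686 and 672 TPM in CXCL3 libraries, against 635, 856 and 1079 TPM in controls (log2 fold change -0.36, adjusted p = 0.457). Without control 1 Rpl10 passed as lower, at -0.56 with an adjusted p of 0.012, as did 7.17% of all genes. With pseudogene rows added the log2 fold change was -0.09. Rpl27, at 131, 121 and 126 TPM in CXCL3 libraries, against 129, 178 and 160 TPM in controls, had a log2 fold change of -0.29 (adjusted p = 0.42) by its own row and -0.14 with pseudogene rows, and passed without control 1 (-0.42, adjusted p = 0.00721). Rpl31, at the rim of the exit tunnel, had 891, 909 and 865 TPM in CXCL3 libraries, against 728, 852 and 820 TPM in controls. Its groups did not overlap by the own row (log2 fold change 0.15, adjusted p = 0.456), and did with pseudogene rows (0.07).

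**Figure D5:**
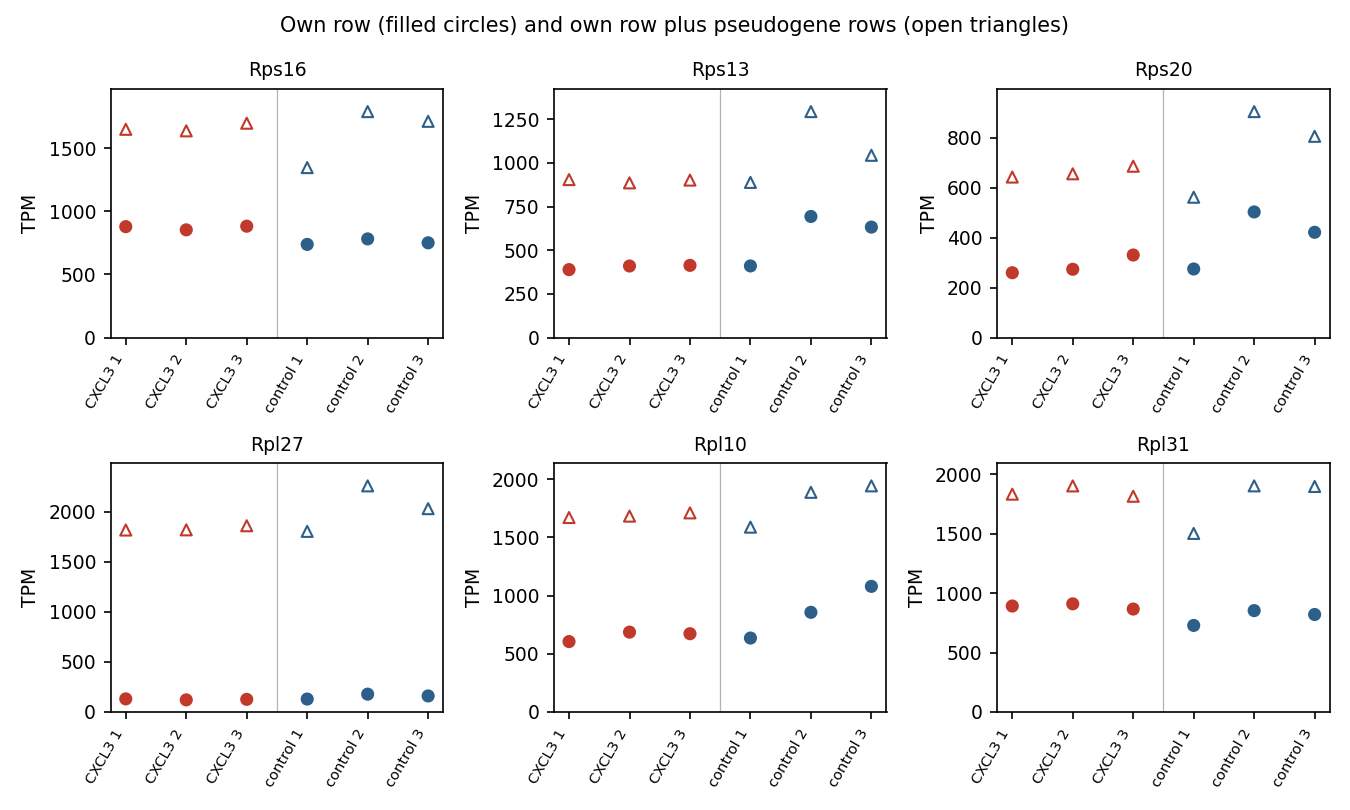
TPM of 6 cytosolic genes in each library (red, CXCL3; blue, control) by the gene's own row (filled circles) and with the matched pseudogene rows added (open triangles). For Rps16 the 3 CXCL3 circles lie above all control circles, while its triangles overlap.

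For Rps18, Rps3 and Rpl3 the fold change was nearly the same with pseudogene rows (0.14, 0.11 and 0.10). Rps18, of the small-subunit head, had 1991, 2012 and 1940 TPM in CXCL3 libraries, against 1721, 1839 and 1854 TPM in controls (log2 fold change 0.14 ± 0.06, adjusted p = 0.442). Rps3, at the mRNA entry channel, had 1298, 1338 and 1377 TPM in CXCL3 libraries, against 1210, 1240 and 1265 TPM in controls (log2 fold change 0.11 ± 0.06, adjusted p = 0.466). Rpl3, close to the peptidyl transferase centre, had 1046, 1023 and 1040 TPM in CXCL3 libraries, against 970, 935 and 984 TPM in controls (log2 fold change 0.11 ± 0.06, adjusted p = 0.467). In all 3 genes each CXCL3 value was above each control value, and none passed the test. The only cytosolic gene entirely lower was Rpl14, a large-subunit protein, at 570, 574 and 582 TPM in CXCL3 libraries, against 584, 784 and 610 TPM in controls (log2 fold change -0.18, adjusted p = 0.486). With pseudogene rows added Rpl14 had 669, 663 and 694 TPM in CXCL3 libraries, against 659, 792 and 614 TPM in controls, and the groups overlapped. Rpl14 was chosen after its values were seen, as was Rpl41, the shortest ribosomal protein, which had the most positive log2 fold change of the cytosolic genes (0.27 ± 0.37). Rpl41 had 2349, 2147 and 2697 TPM in CXCL3 libraries, against 2033, 3516 and 1078 TPM in controls, a spread among controls that covers all CXCL3 values.

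Adding pseudogene rows moved the log2 fold change by more than 0.1 for 16 of 83 cytosolic genes and turned its sign for 6, and moved 1 of 78 mitochondrial genes, Mrpl23. The cytosolic over mitochondrial ratio with pseudogene rows was 31.3, 31.1 and 31.0 in CXCL3 libraries, against 28.1, 29.5 and 28.4 in controls.

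Among mitochondrial genes the smallest p belonged to Mrpl33, a small protein of the large subunit with a bacterial counterpart (chr5:31596935-31664384, plus strand). It had 95.34, 120.41 and 111.01 TPM in CXCL3 libraries, against 130.29, 167.53 and 145.83 TPM in controls. All CXCL3 values were below all controls, with a log2 fold change of -0.44 ± 0.12 (SE) and an adjusted p of 0.278 by limma. Without control 1 it passed, at -0.52 with an adjusted p of 0.0159. Mrpl57, a large-subunit protein without a bacterial counterpart, had 36.61, 35.67 and 34.15 TPM in CXCL3 libraries, against 36.87, 54.67 and 55.17 TPM in controls. The log2 fold change was -0.43 ± 0.16 (adjusted p = 0.378). The CXCL3 mean was 0.962 times control 1 and 0.646 times the mean of controls 2 and 3.

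Mrps7, whose bacterial counterpart starts the folding of the 3′ domain of small-subunit ribosomal RNA, had 29.58, 29.27 and 29.72 TPM in CXCL3 libraries, against 33.10, 37.10 and 35.13 TPM in controls. The log2 fold change was -0.24 ± 0.08 (adjusted p = 0.364). Mrpl43 had 47.01, 48.28 and 49.95 TPM in CXCL3 libraries, against 54.68, 57.32 and 54.62 TPM in controls (log2 fold change -0.19 ± 0.07, adjusted p = 0.387). In these 2 genes control 1 lay with the other controls, so that leaving it out changed the fold change little (-0.28 and -0.21). Mrpl36, with a bacterial counterpart like Mrpl33, had 44.21, 45.36 and 42.93 TPM in CXCL3 libraries, against 46.84, 60.94 and 55.73 TPM in controls (log2 fold change -0.29 ± 0.11, adjusted p = 0.385). Without control 1 all 5 genes passed, with adjusted p of 0.0159 (Mrpl33), 0.00414 (Mrpl57), 0.0179 (Mrps7), 0.0412 (Mrpl43) and 0.00845 (Mrpl36). Over all genes 7.17% then passed as lower, and these 5 had been picked by their p in the same libraries.

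Positive fold changes were found for 9 of 78 mitochondrial genes. Mrpl39 had 27.97, 29.00 and 29.44 TPM in CXCL3 libraries, against 29.31, 24.34 and 26.26 TPM in controls, the most positive log2 fold change of the mitochondrial genes (0.11 ± 0.10, adjusted p = 0.578). Mrps33 (0.07), Mrps27 (0.08), a pentatricopeptide repeat protein, Mrpl19 (0.06) and Mrpl9 (0.05) followed, with adjusted p from 0.699 to 0.824. All 5 had overlapping groups, and with median-of-ratios scaling the signs of Mrps33, Mrpl19 and Mrpl9 turned. Mrpl23, with 7.76, 9.52 and 7.31 TPM in CXCL3 libraries, against 7.10, 14.27 and 11.57 TPM in controls, is the mitochondrial gene whose row is most affected by a pseudogene. With the pseudogene row it had 85.92, 101.90 and 95.30 TPM in CXCL3 libraries, against 91.41, 139.31 and 104.18 TPM in controls. By its own row it passed as lower without control 1 (-0.60, adjusted p = 0.0225), as did 7.17% of all genes.

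No paralog of a standard subunit passed the test. Rpl10l and Rpl3l, known from testis and from heart and skeletal muscle, were listed at 0 in all libraries except for Rpl3l at 0.09 TPM in control 3. Rpl39l, known from male germ cells, had 0.67, 0.57 and 0.68 TPM in CXCL3 libraries, against 0.12, 0.21 and 0.90 TPM in controls, and these 3 genes did not pass the filter. Rps27rt, a retrogene copy of Rps27, had 8.03, 1.94 and 2.77 TPM in CXCL3 libraries, against 8.93, 3.89 and 12.34 TPM in controls. Its log2 fold change of -0.90 ± 0.49 was the most negative among the 161 ribosomal protein genes tested (adjusted p = 0.472). Rps27l, a paralog of Rps27 and a target of p53, had 380, 394 and 400 TPM in CXCL3 libraries, against 395, 529 and 467 TPM in controls (log2 fold change -0.23, adjusted p = 0.437). Without control 1 Rps27l passed as lower, at -0.34 with an adjusted p of 0.0113, as did 7.17% of all genes. Its share of Rps27 and Rps27l together was 16.9%, 16.8% and 18.2% in CXCL3 libraries, against 19.2%, 18.3% and 19.5% in controls, groups that did not overlap by a narrow margin.

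Rpl36al, a retrogene copy of Rpl36a, took 31.2%, 31.7% and 32.1% of the pair in CXCL3 libraries, against 34.9%, 35.1% and 34.3% in controls. That separation was lost when pseudogene rows were added to both genes, at 22.0%, 21.5% and 22.3% in CXCL3 libraries, against 23.1%, 21.3% and 22.8% in controls. Rpl22l1 took 10.9% ± 0.409 of the pair with Rpl22 in CXCL3 libraries and 11.04% ± 0.357 in controls. Rpl7l1 took 6.36% ± 0.0946 of the pair with Rpl7 in CXCL3 libraries and 6.12% ± 0.489 in controls (SD, n = 3 each). Rps19bp1 had 45.36, 45.95 and 51.15 TPM in CXCL3 libraries, against 49.90, 60.96 and 50.77 TPM in controls (adjusted p = 0.482). Rps4l, annotated as a transcribed pseudogene and so outside the rule, had 11.30, 9.58 and 11.08 TPM in CXCL3 libraries, against 8.81, 10.05 and 9.5 TPM in controls (adjusted p = 0.548).

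Genes of small nucleolar RNAs, most of which guide the modification of ribosomal RNA, lie on the same strand within 30 of the 86 cytosolic genes and within 0 of the 78 mitochondrial genes, by annotation. All 58 hosted small nucleolar RNA genes have a row in the table, and all were listed at 0 in the 6 libraries. A zero of this kind says nothing on their presence in the cells.

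Of 78 other genes of the 2 ribosomes and of their assembly in 6 lists, all kept, 0 passed by limma, against 0.16% of all genes. An unadjusted p under 0.05 was found for 6 of the 78, against 11.6% of all genes. Parts of the mitochondrial ribosome with other names had 5 of 5 negative fold changes (median -0.16), and parts of the cytosolic ribosome with other names had 2 of 3 positive ones (median 0.04). Over all genes 37.7% were negative and 62.3% positive (median 0.07). Dap3, a small-subunit protein of the mitochondrial ribosome that binds GTP, had 64.16, 70.23 and 71.73 TPM in CXCL3 libraries, against 70.75, 91.26 and 86.02 TPM in controls (log2 fold change -0.26, adjusted p = 0.426). Aurkaip1, also of that subunit, had a log2 fold change of -0.16 (adjusted p = 0.523). Without control 1, Dap3 (-0.36, adjusted p = 0.0115) and Aurkaip1 (-0.27, adjusted p = 0.0235) passed as lower, as did 7.17% of all genes. Rack1, the scaffold on the small cytosolic subunit, had 1269, 1267 and 1257 TPM in CXCL3 libraries, against 1167, 1132 and 1215 TPM in controls, without overlap (0.11, adjusted p = 0.466). Fau, which encodes a ubiquitin-like protein fused to a small-subunit protein, had a log2 fold change of -0.15 (adjusted p = 0.568).

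In the list of ribosome assembly and ribosomal RNA synthesis 19 of 25 fold changes were positive, against 62.3% of all genes (median 0.06, against 0.07 for all genes). Dkc1, the pseudouridine synthase of ribosomal RNA, had 12.01, 13.76 and 13.53 TPM in CXCL3 libraries, against 10.92, 9.0 and 10.37 TPM in controls (0.35 ± 0.12, adjusted p = 0.375). Nmd3, the export adaptor of the large subunit, had 60.45, 57.22 and 68.12 TPM in CXCL3 libraries, against 59.71, 44.72 and 47.05 TPM in controls (0.30, adjusted p = 0.426). Translation factors and other genes whose mRNAs carry the TOP motif were 7 positive and 8 negative (median -0.01). In that list Npm1, a nucleolar chaperone, had 869, 859 and 863 TPM in CXCL3 libraries, against 777, 746 and 680 TPM in controls (0.24 ± 0.07, adjusted p = 0.295). Hnrnpa1, an RNA-binding protein, had 227, 227 and 225 TPM in CXCL3 libraries, against 213, 177 and 183 TPM in controls (0.25, adjusted p = 0.349). Both were higher in every CXCL3 library than in any control. Without control 1, Npm1 (adjusted p = 0.0119), Hnrnpa1 (0.00603), Dkc1 (0.029) and Nmd3 (0.0141) passed as higher, as did 25.2% of all genes.

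Factors of mitochondrial translation and ribosome assembly had 11 positive and 12 negative fold changes (median -0.0050), against 62.3% positive over all genes. Mterf4, which brings a methyltransferase to the mitochondrial ribosome, had 11.08, 11.15 and 12 TPM in CXCL3 libraries, against 12.72, 14.07 and 13.21 TPM in controls (-0.21, adjusted p = 0.462). Mettl17, a factor of mitochondrial small-subunit assembly, had a log2 fold change of 0.26 (adjusted p = 0.472). Of the mTORC1 and MYC list 5 of 7 were positive (median 0.15). Rptor, the mTORC1 scaffold, had 17.08, 17.97 and 16.41 TPM in CXCL3 libraries, against 18.78, 10.35 and 8.89 TPM in controls (0.48 ± 0.24, adjusted p = 0.464), with control 1 above all CXCL3 libraries and the other controls below them. Without control 1 it passed as higher (0.78, adjusted p = 0.00538), as did 25.2% of all genes. Eif4ebp1, the translational repressor that mTORC1 phosphorylates, had 734, 757 and 767 TPM in CXCL3 libraries, against 768, 810 and 913 TPM in controls (-0.14, adjusted p = 0.473).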

How the data were processed

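Total RNA of primary mouse fibroblasts was sequenced in 6 libraries. The authors deposited 1 table of TPM values for 51912 genes with 1 column per library, whose sums run from 984281 to 986705. Per the submitters' processing notes, fastp, HISAT and RSEM and the build GRCm38.p5 were used, without versions or roles. The sources used here give no annotation release or strandedness. TPM hides depth, and RSEM divides reads between near-identical genes. Groups follow the treatment label. Genes were named and placed with GENCODE M21 (GRCm38).

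Genes with at least 1 TPM in at least 3 of 6 libraries (13139) were put on the scale log2(TPM + 1), and limma 3.58.1 (R 4.3.3; eBayes with trend; two-sided) compared the groups, adjusting by Benjamini-Hochberg over these genes with a threshold of 0.05. Pseudogene rows were matched with blastn 2.17.0. Genes named are, for each ribosome, the 5 positive and 5 negative with the smallest p, the 3 highest and 3 lowest in level, the paralogs, and 2 genes of each pathway list, and others, including those named only for a sequence or a pseudogene share, were picked once their values were known. The members, the lists and the tests were chosen with earlier results of these data known. On simulated data (13139 genes, 200 changed, 10 runs) the fit called 29.3% of 1.5-fold, 68.4% of 2-fold and 93.3% of 4-fold changes, with 5.1 false calls a run. The simulated noise was independent between genes and equal in both groups, unlike in these libraries, so these rates need not hold here. Alternatives covered pseudocounts, filters, scaling, variance models, library weights, replicate block, length and GC trends, and leaving out libraries. Adding pseudogene rows was chosen after seeing the data.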

Additional observations from a re-analysis of the deposited data

How the results depend on the processing

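The count of members past the threshold, 0 for each ribosome, stayed 0 except with library weights (9 cytosolic and 4 mitochondrial genes, beside 1446 of all genes, and 7 other genes of the pathway), without controls 2 and 3 (1 cytosolic) and without control 1. Leaving out each library gave 0 to 25 cytosolic, 0 to 22 mitochondrial, 0 to 19 other pathway and 0 to 4254 of all genes, the highest count each time without control 1. Calls over all genes (21) were 0 with no filter on low values (1928 at an unadjusted p under 0.05), 84 without controls 2 and 3, 43 after removal of length and GC trends, 5 with median-of-ratios scaling and 1 with no trend in eBayes. Deviations from the group means correlated at 0.12, -0.01 and 0.08 between libraries of the same replicate number. With 3 libraries in each group, such values cannot show whether the numbers pair the libraries. With the replicate number as a block there were 12 calls over all genes, 1 with the length and GC trend also removed, and 0 members in both. The cytosolic over mitochondrial ratio, 1.09 in CXCL3 over control, was 1.12 with quantile normalization, 1.11 with the length and GC trend removed, 1.11 with the replicate block added to that, 1.11 without controls 2 and 3, and 1.07 to 1.11 when each library was left out. Without controls 2 and 3 the summed levels in CXCL3 over control were 1.09 (cytosolic) and 0.986 (mitochondrial), and the median log2 fold changes 0.11 (cytosolic), -0.032 (mitochondrial) and -0.079 (all genes).

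Over 47 named genes and 21 settings, 923 of 987 values kept sign and side of the threshold, 32 passed newly, and 32 turned sign, the cause of which was not tested. With median-of-ratios scaling these log2 fold changes turned: Rplp1 -0.045, Mrps33 -0.0070, Mrpl19 -0.011 and Mrpl9 -0.030. With quantile normalization they were Mrps27 -0.019, Mrpl19 -0.063 and Mrpl9 -0.011, and with library weights Rplp1 -0.015. With the length and GC trend removed, alone or with the replicate block, they were Mrpl19 -0.095 and Rack1 -0.018. Without controls 2 and 3 they were Rps20 0.060, Rpl10 0.041, Rpl13a 0.0015, Rps24 0.14, Rpl5 0.038, Mrpl39 -0.025, Mrps21 0.15, Mrpl54 0.014, Mrpl23 0.18, Rpl22l1 0.11, Fau 0.026, Aurkaip1 0.078 and Rptor -0.12. Leaving out each library gave ranges across 0 for Rpl5 (-0.10 to 0.032), Rplp1 (-0.064 to 0.14), Rpl13a (-0.28 to 0.14), Rps24 (-0.23 to 0.0088), Mrpl9 (-0.035 to 0.11) and Fau (-0.24 to 0.0047). No count of reads is known, so no limit from depth can be given.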
